A study of Mus musculus with 6 samples.

Results

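The 9 genes described here encode soluble proteins and enzymes by which the proximal tubule is known: Kap, Miox, Keg1, Ttc36, Ass1, Agxt2, Hao2, Dao and Hpd. They were chosen by symbol, with no measured value in the rule but with earlier results of these data known. All 9 were found among the 24422 gene symbols of the count tables. RNA was sequenced from 6 whole kidneys of C57BL/6 mice at postnatal day 13 (P13), all on a diet with 220 ppm iron. The 3 Control kidneys carried the wild type label, and the other 3 (TfR1KO;Six2Cre, here TfR1 knockout) were labelled Tfr1f/f;SixCre, with floxed Tfr1 alleles and a recombinase driven by Six2 in nephron progenitors. The floxed exons encode part of the transferrin receptor, the main route by which cells take up iron bound to transferrin, and the study describes tubular cells that escaped the deletion. The comparison asked which transcripts differ in a kidney whose nephrons were formed from progenitors targeted for the receptor.

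The proximal tubule reclaims most of the filtered solutes and is also the main metabolic segment of the nephron. It makes arginine from citrulline, opens the inositol ring for the glucuronate pathway, breaks down tyrosine, transaminates beta-amino acids, and oxidizes D-amino acids and 2-hydroxy acids in its peroxisomes. Miox and Hpd are oxygenases that use iron in their active sites. Kap, the kidney androgen-regulated protein, is an abundant transcript of the proximal tubule in mice and responds to androgen and other hormones.

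The bases upstream of 4 of these genes are printed to show the regions from which they are transcribed: 3 genes whose values in the knockout lay wholly below those of the Control (Kap, Miox and Agxt2) and Keg1, whose values did not. They are the 250 bases before the RefSeq transcription start (build GRCm38.p6), written 5′ to 3′ on the gene's strand. Capitals mark TATAAA, the core of the TATA box, GTTAAT, the repeated arm of the HNF1 motif, CAAAGTCCA, a form of the HNF4 motif, and AGAACA, the arm of the steroid receptor motif, on either strand.
Kap, chr6:133853668-133853917, minus strand: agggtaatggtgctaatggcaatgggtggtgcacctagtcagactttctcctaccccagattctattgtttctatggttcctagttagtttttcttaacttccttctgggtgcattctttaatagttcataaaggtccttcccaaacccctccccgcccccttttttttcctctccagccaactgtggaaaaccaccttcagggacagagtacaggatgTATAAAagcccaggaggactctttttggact
Miox, chr15:89334223-89334472, plus strand: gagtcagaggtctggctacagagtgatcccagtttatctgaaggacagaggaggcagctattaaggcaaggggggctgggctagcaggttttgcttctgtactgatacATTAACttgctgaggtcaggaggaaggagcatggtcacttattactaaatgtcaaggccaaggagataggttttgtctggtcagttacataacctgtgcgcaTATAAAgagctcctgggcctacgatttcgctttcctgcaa
Agxt2, chr15:10358283-10358532, plus strand: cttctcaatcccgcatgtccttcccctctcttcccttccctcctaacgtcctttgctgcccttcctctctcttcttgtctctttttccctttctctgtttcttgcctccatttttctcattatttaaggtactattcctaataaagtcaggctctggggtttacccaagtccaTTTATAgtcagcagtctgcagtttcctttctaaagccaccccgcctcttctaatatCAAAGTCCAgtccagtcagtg
Keg1, chr19:12695540-12695789, plus strand: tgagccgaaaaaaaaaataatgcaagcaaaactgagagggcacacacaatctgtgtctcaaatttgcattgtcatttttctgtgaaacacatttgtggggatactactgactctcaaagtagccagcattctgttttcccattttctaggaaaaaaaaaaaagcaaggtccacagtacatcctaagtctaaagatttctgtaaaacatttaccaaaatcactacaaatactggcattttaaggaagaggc
In the Kap window TATAAA ran from 31 to 26 bases before the start, and in the Miox window from 40 to 35 bases before it. Agxt2 held CAAAGTCCA from 21 to 13 bases before its first start and TATAAA on the opposite strand from 77 to 72 bases before it. None of these 4 motifs was found in the Keg1 window. An upstream window was matched for 8 of the 9 genes, all but Ttc36. Among 32851 mouse promoter windows of the same length, 12.4% held TATAAA, 6.43% GTTAAT, 0.384% CAAAGTCCA and 16.1% AGAACA on either strand. GTTAAT was also present in the Hao2 window and AGAACA in 1 of 3 Dao windows, whereas Ass1 and Hpd held none of the 4. The matches did not overlap each other, and they describe letters, not bound sites.

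Total gene counts ran from 16591156 to 22898008 per library. Control replicate 3 stood apart from the other Control libraries, with a Pearson r of 0.933 and 0.941 against them across genes. Between Control replicates 1 and 2 it was 0.976. The knockout libraries were no closer to each other, with 0.924 for replicates 1 and 2, 0.957 for 1 and 3 and 0.951 for 2 and 3. Control replicate 3 had the lowest Control value for all 9 genes and for 17 of 20 other proximal tubule markers, compared with 49.9% of 12095 genes averaging at least 100 normalized counts. TfR1 knockout replicate 1 had the highest knockout value for 7 of the 9 genes, compared with 9 of the 20 markers and 35.8% of those 12095 genes. Tfrc, the targeted gene, had 5534, 6485 and 3667 normalized counts in the Control libraries and 6976, 4045 and 5898 in the knockout libraries (log2 fold change 0.11, Padj = 0.853), so its total count does not check the labels. Xist was high in Control replicates 1 and 3 and TfR1 knockout replicate 2, and the Y-linked Ddx3y in the other 3 libraries. Both groups thus held both kinds. TfR1 knockout replicate 3, with 2347 normalized counts of Ddx3y, also had 1031 of Xist. Control replicate 2 had 78.2 of Xist and TfR1 knockout replicate 1 had 145.

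Kap, Agxt2 and Dao were lower in TfR1 knockout kidneys by DESeq2, Dao by neither edgeR nor limma-voom, and no member was called higher. Kap was 12.3-fold lower, Agxt2 3.06-fold and Dao 2.08-fold. The other 6 genes did not pass the test (adjusted p under 0.05 over all genes tested, DESeq2), and among them Miox had the lowest log2 fold change, -2.16. The 3 of 9 members lower compare with 7.18% of the 16509 genes tested that were lower, and the 0 of 9 members higher with 7.74%. All 3 were at least 2-fold lower, as were 4.46% of genes tested. By edgeR's quasi-likelihood test 2 members were lower, Kap and Agxt2, against 2.8% of 15308 genes, and 0 were higher, against 3.22%. By limma-voom the same 2 were lower, against 2.98%, and 0 were higher, against 3.17%. At an unadjusted p under 0.05, 0 of 9 were higher by any of these tools, and 5 (DESeq2) or 4 (edgeR, limma-voom) were lower. The share of all genes at this unadjusted threshold was not computed, here or for the lists below. Kap, Miox and Agxt2 were the 3 of 9 whose knockout values all lay below the Control values, as did those of 16.9% of genes tested, while 0 of 9 lay above, against 16.9%. The median log2 fold change of the 9 genes was -0.93, and that of all genes tested was 0.0071. Without Control replicate 3, 5 members were lower (Kap, Agxt2, Dao, Ttc36 and Hao2), and without TfR1 knockout replicate 1 also 5 (Kap, Miox, Agxt2, Dao and Ttc36). Over all genes, 2463 passed in either direction with all libraries. That number was 2345 without Control replicate 3 and 3205 without TfR1 knockout replicate 1. Each group had 3 libraries, and in whole-kidney RNA fewer cells of a type and less RNA per cell cannot be told apart.

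**Figure D1:**
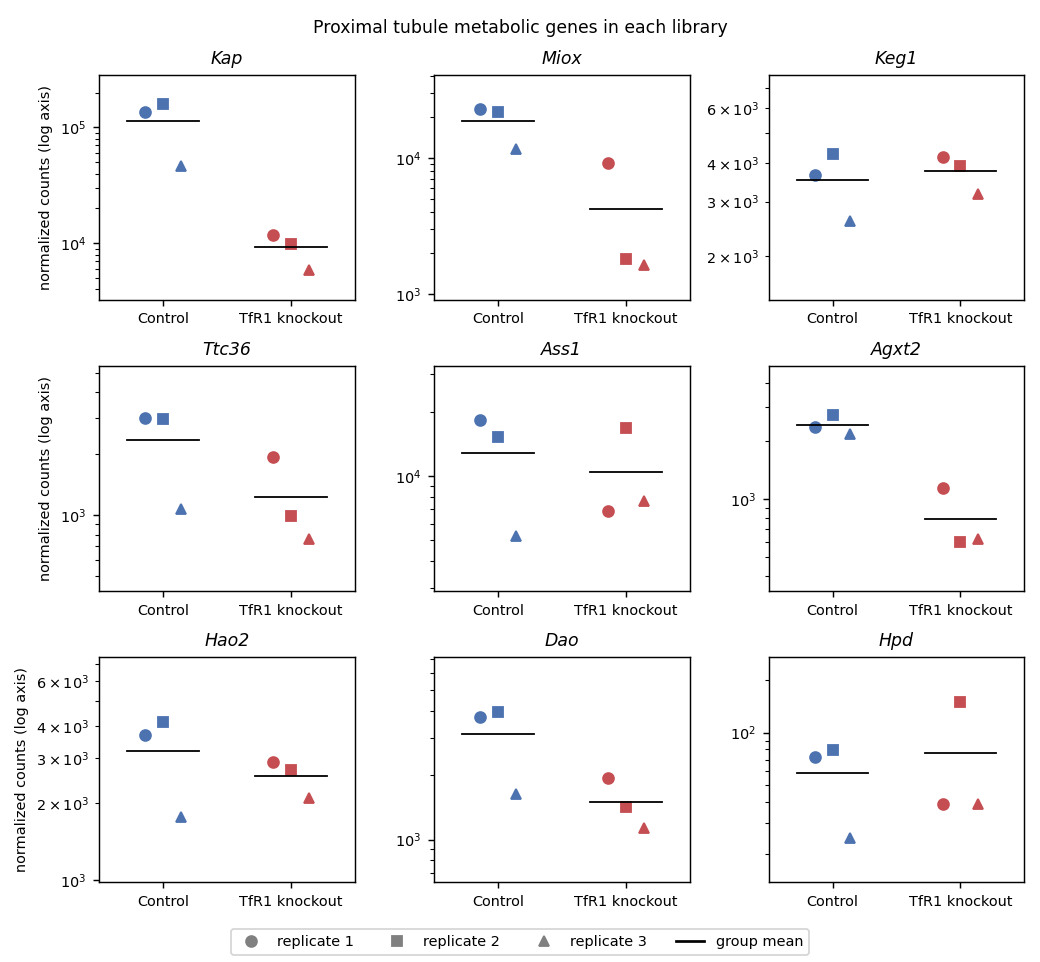
Normalized counts (log axis, a different range in each panel) of the 9 genes in each library, with circles, squares and triangles for replicates 1, 2 and 3 and a bar at the group mean. Kap, Miox and Agxt2 show no overlap between groups, Control replicate 3 is the lowest Control point in every panel, and TfR1 knockout replicate 1 lies 5.35 times above the mean of the other knockout libraries for Miox.

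Kap (mm9 chromosome 6, 133799873 to 133803685, minus strand, 608 exonic bases) had 134550, 158797 and 46135 normalized counts in Control replicates 1 to 3. The knockout replicates 1 to 3 had 11842, 9917 and 5892. Normalized counts are reads per gene divided by a size factor for each library. Every knockout library lay below the lowest Control library, although the Control values themselves spread 3.44-fold. The means were 113160 ± 59298 and 9217 ± 3036 (SD, No.=3 each), a log2 fold change of -3.62 (SE 0.44, 95% interval -4.48 to -2.76; Padj = 3.30e-14, edgeR 0.0137). Leaving out each library in turn gave -4.00 to -3.30, and all 6 fits passed. As a share of all counted reads, Kap took 0.713%, 0.823% and 0.258% in the Control libraries and 0.0615%, 0.0443% and 0.0312% in the knockout libraries. Kap made up 63.8% to 74.2% of the reads of the 9 genes in Control and 25.6% to 29.6% in the knockout. Because Kap responds to androgen, it was read beside Xist. Among the libraries with high Xist, Kap had 134550 and 46135 in Control and 9917 in the knockout, and among those with Ddx3y 158797 in Control and 11842 and 5892 in the knockout. Each of these comparisons has a group of 1 library, was made after Xist was seen and was not tested, so they give values only. With Xist as a covariate over all 6 libraries the log2 fold change was -3.62 (Padj = 6.12e-16), and the part of androgen in the difference was not tested.

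Miox (myo-inositol oxygenase, the first enzyme of inositol breakdown; chromosome 15, 89164829 to 89167446) had 22846, 21803 and 11645 normalized counts in Control. The knockout replicates 1 to 3 had 9180, 1799 and 1633. The groups did not overlap, but TfR1 knockout replicate 1 held 5.35 times the mean of the other knockout libraries and lay nearer to Control replicate 3 than to them. The means were 18764 ± 6188 and 4204 ± 4310, and the log2 fold change of -2.16 (SE 0.90, 95% interval -3.92 to -0.40) did not pass (Padj = 0.0855, edgeR 0.111). The call rested on single libraries: without TfR1 knockout replicate 1 the log2 fold change was -3.45 (Padj = 8.86e-24), and without TfR1 knockout replicate 3 it was -1.77 (Padj = 0.0349). With Xist as a covariate it was -2.62 (Padj = 7.15e-06).

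Of 13 measured genes of inositol and glucuronate metabolism, 0 were lower and 1 was higher by DESeq2, with a median log2 fold change of -0.14. By edgeR 0 of 13 passed in either direction, and at an unadjusted p under 0.05 both tools had 1 lower and 2 higher. The counts depended on single libraries: 2 were lower without Control replicate 3 (median -0.40), and 1 without TfR1 knockout replicate 2 (median -0.36) or with total-count size factors (median -0.21). The gene that passed was Rgn (regucalcin, a gluconolactonase), with a log2 fold change of 0.69 (Padj = 0.0373, edgeR 0.119), and it passed in 0 of 6 fits with a library left out.

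Ass1 (argininosuccinate synthase, which joins citrulline and aspartate; chromosome 2, 31325727 to 31376192) had 18203, 15237 and 5226 normalized counts in Control and 6839, 16800 and 7627 in the knockout. The groups overlapped widely, with TfR1 knockout replicate 2 close to Control replicates 1 and 2 and the other knockout libraries close to Control replicate 3. The log2 fold change was -0.31 (SE 0.48, 95% interval -1.25 to 0.63; Padj = 0.731, edgeR 0.716), an interval that includes both a 2-fold decrease and no change. Its sign was not stable, with -0.83 when TfR1 knockout replicate 2 was left out and 0.02 when Control replicate 1 was.

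Agxt2 (chromosome 15, 10288287 to 10339908) encodes a mitochondrial aminotransferase that uses glyoxylate and breaks down beta-aminoisobutyrate and asymmetric dimethylarginine. It had 2356, 2714 and 2180 normalized counts in Control and 1142, 604 and 621 in the knockout. All knockout libraries lay below all Control libraries, and Control replicate 3 was at 0.860 of the mean of the other Control libraries, the nearest to them of the 9 genes. The means were 2417 ± 272 and 789 ± 306, with a log2 fold change of -1.62 (SE 0.29, 95% interval -2.18 to -1.05; Padj = 1.41e-06, edgeR 0.0189), and all 6 fits with a library left out passed. In the annotation, 155 of its 3165 exonic bases lie also in exons of Prlr, the prolactin receptor gene on the same strand. Prlr fell too, with a log2 fold change of -2.45 (Padj = 1.64e-07), and how reads in the shared bases were counted is not given in the sources used here.

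Among 10 genes of arginine and dimethylarginine metabolism with an adjusted p, 1 was lower and 2 were higher by DESeq2, with a median log2 fold change of 0.090. By edgeR 1 was lower and 1 higher of 9, with a median of -0.14. The 2 higher became 1 with total-count size factors and when any library but TfR1 knockout replicate 3 was left out, and the median was -0.21 without TfR1 knockout replicate 1. Asl, argininosuccinate lyase, which acts after Ass1, fell from 2707 ± 455 to 1510 ± 174 normalized counts (log2 fold change -0.84, Padj = 0.000586, edgeR 0.0299), with no overlap between groups. Arg2, the mitochondrial arginase, rose from 303, 376 and 202 to 702, 3146 and 1146 normalized counts (log2 fold change 2.50, Padj = 2.50e-05, edgeR 0.0429). Ddah1, which breaks down dimethylarginine, had 2000 to 3855 normalized counts in Control and 4078 to 5208 in the knockout and did not pass (Padj = 0.117). The other gene that was higher, Cps1, counted only 0 to 4 reads per Control library and 2 to 34 per knockout library and passed in 1 of 6 fits with a library left out.

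Dao (D-amino acid oxidase; chromosome 5, 114453712 to 114475458) and Hao2 (hydroxyacid oxidase; chromosome 3, 98678500 to 98697162) are peroxisomal flavoenzymes that release hydrogen peroxide. Dao had 3728, 3962 and 1637 normalized counts in Control and 1938, 1414 and 1136 in the knockout. Control replicate 3 lay below TfR1 knockout replicate 1, so the groups overlapped. The means were 3109 ± 1280 and 1496 ± 407, and the log2 fold change of -1.06 passed by DESeq2 (SE 0.36, 95% interval -1.77 to -0.35; Padj = 0.0294) but not by edgeR (0.113) or limma-voom (0.136). Of 6 fits with a library left out, 2 passed, those without Control replicate 3 (-1.37) and without TfR1 knockout replicate 1 (-1.29). The call was lost without Control replicate 1 or 2 or TfR1 knockout replicate 2 or 3, with Padj = 0.191, 0.207, 0.0978 and 0.174. Hao2 had 3693, 4126 and 1759 normalized counts in Control and 2879, 2677 and 2096 in the knockout. All knockout values lay between Control replicate 3 and the other Control libraries. Its log2 fold change was -0.32 (SE 0.33, 95% interval -0.97 to 0.32; Padj = 0.563, edgeR 0.511), and it passed only without Control replicate 3 (-0.62, Padj = 0.0257).

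Other peroxisomal oxidases and antioxidant enzymes moved in both directions. Of 10 with an adjusted p, 2 were lower and 2 higher, with a median log2 fold change of 0.15, and by edgeR 1 was lower and 0 were higher of 9. With a library left out, 1 was lower without Control replicate 1 or 2 or TfR1 knockout replicate 3, 0 were higher without any 1 of the Control libraries, and 1 was higher without TfR1 knockout replicate 1 or 2. Ddo, the oxidase of acidic D-amino acids and the nearest enzyme to Dao in what it does, fell from 624 ± 161 to 202 ± 85.9 normalized counts (log2 fold change -1.63, Padj = 0.000124, edgeR 0.0364). Prdx5, a peroxiredoxin, fell by 0.63 on the log2 scale (Padj = 0.0196, edgeR 0.0984). Ephx2, an epoxide hydrolase, rose with a log2 fold change of 0.70 (Padj = 0.0462, edgeR 0.107). Cat, catalase, had a log2 fold change of 0.23 (Padj = 0.666). Of 16 peroxisome biogenesis genes 0 passed in either direction by DESeq2 or edgeR, with a median of -0.017. At an unadjusted p under 0.05, 1 was lower (Pex10) and 1 higher (Pex11a) by DESeq2 and 1 was higher by edgeR. By DESeq2's adjusted p, 1 was lower without Control replicate 3 and 2 without TfR1 knockout replicate 1.

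Hpd (4-hydroxyphenylpyruvate dioxygenase; chromosome 5, 123621816 to 123632734) and Ttc36 (chromosome 9, 44607483 to 44611034), which encodes a protein of tetratricopeptide repeats, did not pass the test. Hpd acts in the breakdown of tyrosine. It counted only 23 to 118 reads per library, so it was not abundant in these kidneys. Its normalized counts were 72.6, 79.1 and 24.8 in Control and 38.8, 151 and 38.8 in the knockout. TfR1 knockout replicate 2 was the highest of all 6 libraries, and the groups overlapped. The log2 fold change was 0.36 (SE 0.66, 95% interval -0.92 to 1.65; Padj = 0.771, edgeR 0.775), and it was -0.60 without TfR1 knockout replicate 2. Ttc36 had 3003, 2952 and 1074 normalized counts in Control and 1931, 985 and 761 in the knockout. Control replicate 3 lay among the knockout libraries. Its log2 fold change of -0.93 (SE 0.45, 95% interval -1.82 to -0.05; Padj = 0.157, edgeR 0.244) did not pass, but it passed without Control replicate 3 (-1.28, Padj = 0.0106) and without TfR1 knockout replicate 1 (-1.42, Padj = 0.00926).

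Of 7 other genes of tyrosine catabolism, 2 were lower and 1 was higher by DESeq2 and by edgeR, with a median log2 fold change of -0.11. Pcbd1, which recycles the cofactor tetrahydrobiopterin, fell from 3569 ± 414 to 1933 ± 228 (log2 fold change -0.89, Padj = 3.37e-05, edgeR 0.0200). The enzymes before and after Hpd in the pathway differed in their calls. Tat, upstream of Hpd, counted 0 to 2 reads per Control library and 29 to 59 per knockout library and was higher (Padj = 3.59e-06). Hgd, downstream of Hpd, had a log2 fold change of -0.11 (Padj = 0.886).

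Keg1 (chromosome 19, 12770276 to 12794392) encodes a protein of the glycine N-acyltransferase family. It had 3650, 4289 and 2606 normalized counts in Control and 4181, 3910 and 3169 in the knockout. The groups overlapped, and the means were 3515 ± 850 and 3753 ± 524. The log2 fold change of 0.09 (SE 0.24, 95% interval -0.38 to 0.56; Padj = 0.842, edgeR 0.831) had the narrowest interval of the 9 genes, and it excludes a 2-fold change in either direction for these libraries. Its sign turned to -0.08 without Control replicate 3. Of its 5664 exonic bases, 491 are shared with the antisense transcript Gm15962, and the strand setting of the counting is not given in the sources used here. Of 9 other acyl-conjugation genes with an adjusted p, 1 was lower and 1 higher. Acy1, aminoacylase, which removes acyl groups from amino acids, fell from 2626 ± 1244 to 708 ± 151 normalized counts (log2 fold change -1.89, Padj = 3.70e-05, edgeR 0.0349). Acsm3, a medium-chain acyl-CoA synthetase, rose from 46.2 ± 9.23 to 212 ± 79.5 (log2 fold change 2.19, Padj = 6.21e-07, edgeR 0.0195).

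**Figure D2:**
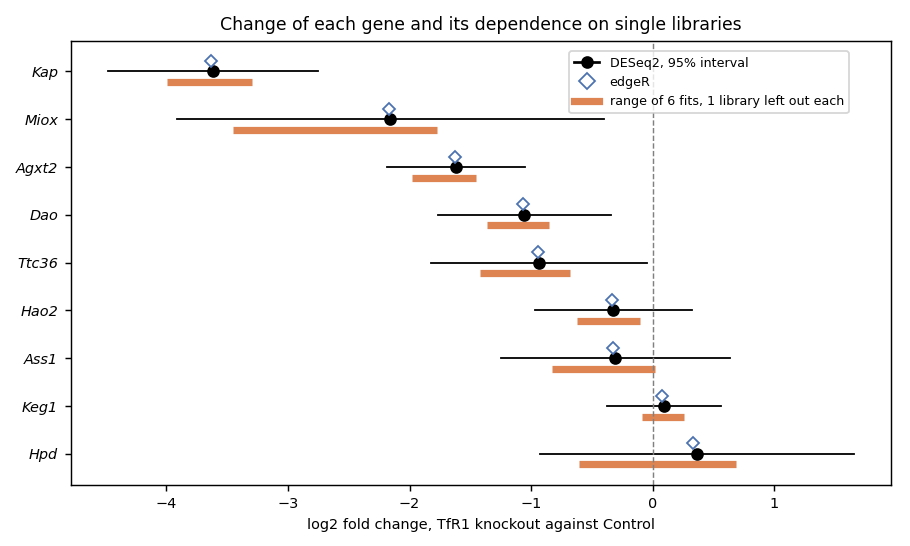
Log2 fold change of each gene, TfR1 knockout against Control. Black points and lines are the DESeq2 estimate and its 95% interval, diamonds the edgeR estimate, and orange bars the range of 6 DESeq2 fits with 1 library left out each. The Kap and Agxt2 ranges stay well below 0, the Miox range runs from -3.45 to -1.77, and the ranges of Ass1, Keg1 and Hpd cross 0.

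Levels of different genes were compared as normalized counts per kilobase of exon, a level and not a difference. In Control, Kap had 186119 ± 97530 per kilobase, followed by Miox with 11365 ± 3748, Ass1 with 5587 ± 2947, Ttc36 with 3067 ± 1439, Hao2 with 1602 ± 632, Dao with 1279 ± 527, Agxt2 with 764 ± 86.0, Keg1 with 621 ± 150 and Hpd with 27.7 ± 13.95. The ranges of 1 SD about the mean did not overlap for Kap and Miox or for Keg1 and Hpd, whereas those of the other neighbours in this order did. In the knockout Kap still led at 15159 ± 4993, but Ass1 (4518 ± 2400) came next, ahead of Miox (2546 ± 2611). Agxt2 (249 ± 96.6), already below Dao in Control, stood below Keg1 (663 ± 92.5) as well. Keg1 stood above Dao (615 ± 168). The ranges of Ass1 and Miox overlapped in the knockout, as did those of Keg1 and Dao.

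A chosen list of other androgen-responsive kidney genes was set beside Kap. The list is a selection, so it does not show how such genes moved as a whole. Of 8 measured, 0 were lower (also 0 at an unadjusted p under 0.05 by DESeq2, edgeR or limma-voom) and 2 were higher, with a median log2 fold change of 0.15. edgeR and limma-voom tested only 6 of the 8, leaving out those with 2 to 12 reads per library. Cyp2j13, a cytochrome P450, had 7.42 to 18.3 normalized counts in Control and 1456 to 1463 in the knockout (log2 fold change 6.91, Padj = 1.20e-111, edgeR 0.000411). Cyp4b1, another P450, had 134 to 158 normalized counts in Control and 242, 1130 and 248 in the knockout and rose by DESeq2 (Padj = 0.00744) but not by edgeR (0.107).

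The 9 genes were set beside 20 other proximal tubule markers, which did not move one way. Of these, 5 were lower (Slc5a2, Slc7a13, Lrp2, Gatm and Aqp1) and 4 were higher (Pck1, Slc22a6, Akr1c21 and Cyp2e1) by DESeq2. Their median log2 fold change was -0.23. By edgeR 2 were lower, Slc5a2 and Slc7a13, and 4 higher. Slc5a2, the glucose cotransporter of the early segment, fell by 5.12 on the log2 scale. Gatm, the first enzyme of creatine synthesis, fell by 1.87 but did not pass by edgeR. Pck1, a gluconeogenic enzyme, rose with a log2 fold change of 2.12. The markers' summed level was 168680 to 287113 normalized counts in Control and 256232 to 466322 in the knockout, and none was at 0.

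**Figure D3:**
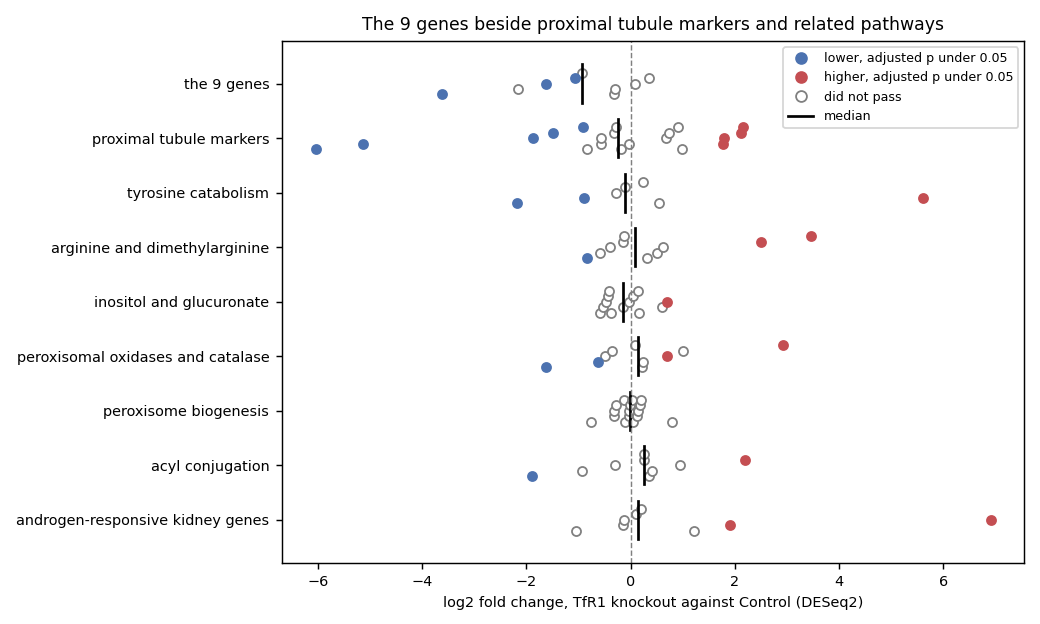
Log2 fold changes (DESeq2) of the 9 genes, 20 other proximal tubule markers and the genes of 7 related lists, with filled points for an adjusted p under 0.05 and a bar at each median. The medians of the related lists lie between -0.14 and 0.25, and that of the 9 genes at -0.93.

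When each library was scaled to the mean log2 level of these 20 markers, Kap, Miox, Agxt2 and Dao stood lower in the knockout without overlap and Keg1 stood higher without overlap. Unscaled, Dao and Keg1 overlapped, and the share of all genes without overlap on this scale was not computed. The differences on this scale were -3.11 for Kap, -2.20 for Miox, -1.29 for Agxt2, -0.60 for Dao and 0.50 for Keg1. Each had an exact two-sided permutation p of 0.1, the smallest that 3 against 3 libraries allow, so this design could not reach 0.05. Ttc36 (-0.52, exact p = 0.2), Ass1 (0.14, exact p = 0.7), Hao2 (0.14, exact p = 0.5) and Hpd (0.61, exact p = 0.4) overlapped. The marker mean itself differed by -0.38 with overlap (exact p = 0.3). Slc7a13 (log2 fold change -6.04) and Slc5a2 (-5.12) pull this mean down in the knockout, which raises every gene there on this scale. A mean without them was not computed, and Keg1 unscaled had a log2 fold change of 0.09. On this scale Keg1 was at -0.66, -0.51 and -0.34 in Control and -0.04, -0.11 and 0.14 in the knockout. This scaling was chosen after the markers' values were seen.

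**Figure D4:**
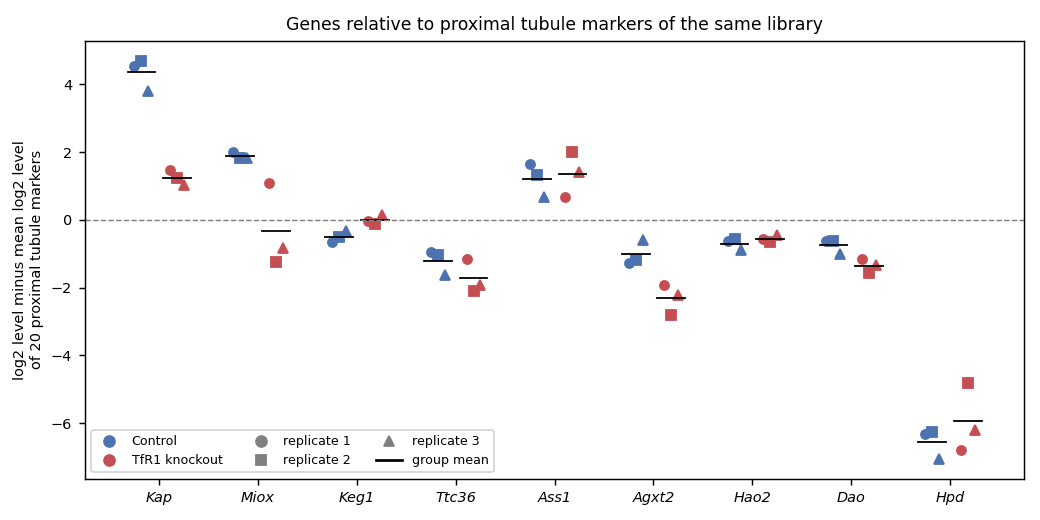
Log2 level of each gene minus the mean log2 level of 20 proximal tubule markers in the same library (blue Control, red TfR1 knockout; shapes are replicates, bars are means). Kap has a mean of 4.35 in Control and 1.24 in the knockout and Agxt2 of -1.02 and -2.31, with no overlap, while Hao2 has -0.70 and -0.57.

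Markers of other cell types moved with the groups as well. Of 5 thick ascending limb markers 4 were lower (summed level 44270 to 91080 in Control, 12739 to 24133 in the knockout), and all 3 distal convoluted tubule markers were lower (11272 to 22529, and 736 to 1783). Of 5 collecting duct markers 2 were higher (7172 to 16161, and 30829 to 59526), and of 6 macrophage markers 4 were higher (1937 to 2993, and 3888 to 5856). Of 9 liver markers 5 were higher and 1 lower (4762 to 5780, and 4726 to 16722), with Alb at 34, 17 and 13 reads in Control and 435, 290 and 71 in the knockout. Of 4 podocyte markers 0 passed by DESeq2 or edgeR, also at an unadjusted p under 0.05, of 5 endothelial markers 1 was higher, and of 5 stromal markers 1 was lower. By edgeR, 2 thick ascending limb and 3 distal convoluted tubule markers were lower, and 1 collecting duct, 3 macrophage and 2 liver markers were higher. Control replicate 3, the lowest Control library for all 9 genes, had the highest summed stromal (90824) and endothelial (17395) levels of the 6 libraries, compared with 24055 to 45931 and 10822 to 15925 in the others. Adrenal cortex markers summed to 26125 in Control replicate 1 and 3451 in TfR1 knockout replicate 3, and to 179 to 400 in the other libraries. Among these markers Ahsg (liver) and Cyp11b1 and Cyp11b2 (adrenal cortex) were at 0 in at least 1 library. The part of these tissues in the values of the 9 genes was not tested.

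Each gene was also matched to the gene whose log2 level over the 6 libraries was most like its own, among 12106 genes averaging at least 100 normalized counts. The highest Pearson r was 0.999 for Kap with Rdh19, Agxt2 with Tmem216 and Hao2 with Sypl2. It was 0.998 for Ttc36 with Scly, 0.997 for Miox with Ints10 and for Dao with Ggct, 0.995 for Hpd with Phyhd1, 0.991 for Keg1 with Atp5d and 0.99 for Ass1 with Sgk2. With 6 libraries many genes come this close: between 36 genes (for Ass1) and 318 genes (for Agxt2) had an r over 0.95. Rdh19 had 1285, 1409 and 534 normalized counts in Control and 218, 166 and 113 in the knockout, the same order of libraries as Kap. Likeness over 6 libraries describes these kidneys only.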

How the data were processed

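RNA was extracted from the 6 kidneys with TRIzol, and TruSeq libraries were made. Per the submitters' processing notes, CASAVA 1.8.2, Trimmomatic, TopHat2 2.0.11 and HTSeq were used with the mm9 build. The authors used reads that aligned to 1 place and deposited unnormalized counts of reads per gene, so genes with near-identical copies lose reads. The annotation and the strand setting are not given in the sources used here.

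The 9 genes and the gene lists were chosen with earlier results of these data known. Counts were tested with DESeq2 1.42.0 (R 4.3.3; Wald test, median-ratio size factors, Benjamini-Hochberg adjustment over 16509 genes), as in the study. edgeR 4.0.16 (quasi-likelihood, TMM) and limma 3.58.1 with voom were alternatives. The code was tested on simulated data. Groups came from the labels, which call the samples biological replicates without naming animals. The study gives 3 mice per model for its RNA results. The p-values measure the spread between these samples. From each list up to 2 genes per direction were named, those with an adjusted p under 0.05, an average of at least 100 normalized counts and the largest change. Ddah1, Cps1, Tat, Cat, Hgd, Alb, Prlr, Pex10 and Pex11a were named after their values were seen. Positions are those of the GENCODE annotation of mm9, and upstream sequences are RefSeq's on GRCm38.p6, with no conversion between builds. Some genes of the lists are counted but not reported here by name.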

Additional observations from a re-analysis of the deposited data

How the results depend on the processing

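Kap and Agxt2 passed under all alternatives run. Keg1, Ass1 and Hpd passed under none. Of the values of single members under an alternative, 116 kept their direction and side of the threshold, 8 passed newly, 6 no longer passed and 5 changed sign. Those 5 were Keg1 with total-count size factors (-0.0057) and without Control replicate 3 (-0.084), Ass1 without Control replicate 1 (0.022), and Hpd without Control replicate 3 (-0.0012) and without TfR1 knockout replicate 2 (-0.60). Total-count size factors moved the median of all genes by -0.10. With a library left out, Keg1 ran from -0.084 to 0.26, Ass1 from -0.83 to 0.022 and Hpd from -0.60 to 0.69.

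With a library left out, 2 to 5 members were lower, 2 to 5 at least 2-fold, and the members' median ran from -1.29 to -0.68. Of the values of the pathway lists under an alternative, 134 stayed close to the reported value and 34 moved. Genes at least 2-fold higher numbered 728 (edgeR 380, limma-voom 365, a library left out 537 to 821) and lower 736 (353, 372, 498 to 1146).

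Same-numbered libraries deviated together by r of -0.037, -0.032 and 0.085, so the replicate numbers were not taken as pairs. With the replicate block, 5 members were lower, Miox (Padj = 1.07e-13) and Ttc36 (Padj = 0.00525) among them, and the 2-fold counts were 658 higher and 750 lower. Only 1 of 6 libraries correlated best with its own number in the other group.

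A fit with Xist as a covariate, chosen after seeing the data, changed only the Miox call among the members. Depth limits Hpd, with 23 to 118 reads, and 3 libraries per group limit the others.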
